A study of Mus musculus with 17 samples.

Results

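Among 17 single skin cells, the 6 cells with the highest and the 6 with the lowest mean of the immediate-early genes Fos, Atf3 and Zfp36 were set against each other, so that 12 of 17 cells are described as a high and a low group and 5 lie between them. The ranking used the measured values themselves, and all 17 cells carry the same label. The contrast is therefore a description: no test, p-value or standard error is given, and the 3 ranking genes are left out of every count. All cells came from the back skin of adult C57BL/6 mice that carried Prrx1-CreERT and a Tomato reporter and received tamoxifen (2 mg per 30 g body weight) once daily for 3 days. In such mice a Cre recombinase that tamoxifen activates is made where the Prrx1 promoter is active, and cells in which it acted stay Tomato-positive together with their descendants. The skin was digested with elastase for 20 min and then with collagenase for 1.5 h at 37°C, and sorted Tomato-positive cells were picked one by one. High, intermediate and low cells share genotype, treatment and digestion, and the labels name no animal for any of them, so cells of 1 mouse and of several cannot be told apart.

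Immediate-early genes are transcribed within minutes of a stimulus without new protein synthesis, through factors such as SRF and CREB that are already present and are switched on by kinase cascades. Many encode transcription factors of the AP-1, EGR and NR4A families, and others encode proteins that end the response, such as kinase phosphatases and RNA-binding proteins. Fos is an AP-1 subunit, Atf3 a bZIP factor of the stress response, and Zfp36 a protein that binds AU-rich elements and hastens the decay of short-lived mRNAs. In skin, enzymatic dissociation is known to induce such genes in fibroblasts.

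A stretch of promoter is shown for the 3 genes that ranked the cells and for Fosb, the other AP-1 gene that followed the ranking most closely. It lies around the TGACG or CGTCA nearest to the RefSeq start site. In Zfp36, which had neither, it lies around the CArG box defined below. Matches of other motifs did not set the stretch, and Fos has a TATAAA nearer to its start than the TGACG shown. Sequences are from RefSeq (GRCm38.p6), 5′ to 3′ on the gene's strand, with matches in capitals.
Fos: cagttccgcccagTGACGtaggaagtccat
Atf3: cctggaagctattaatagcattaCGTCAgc
Fosb: atggagttgcgggTGACGcaagcgcggggg
Zfp36: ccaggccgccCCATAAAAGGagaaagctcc
The capitals in Fos (chr12:85473811-85473840, plus strand), Atf3 (chr1:191183334-191183363, minus strand) and Fosb (chr7:19310089-19310118, minus strand) are TGACG or its complement CGTCA, the core of the cAMP response element (CRE). The core begins 66 bases before the start site in Fos, 7 in Atf3 and 60 in Fosb. The capitals in Zfp36 (chr7:28379267-28379296, minus strand) are a CArG box, the sequence that SRF binds, which begins 58 bases before the RefSeq start. GENCODE M21 annotates a longer Zfp36 transcript whose 5′ untranslated exon covers this stretch. It also annotates Atf3 transcripts that start further upstream, so the Atf3 stretch lies inside the annotated gene, and its last bases lie in the first exon of the shorter transcripts. Searched on both strands of the 250 bases before each start, the CRE core was present in 17.9% of all 27025 RefSeq promoters, in 28.8% of those of the genes kept for the contrast, and in 26 of the 54 matched promoters of the 68 other immediate-early genes kept. The full CRE, TGACGTCA, which holds the core on each strand, was in 1.62% of all promoters and in 5 of those 54, namely Arl4d, Btg2, Dusp1, Dusp8 and Plk2. A CArG box was in 1.40% of all promoters and the AP-1 motif TGANTCA in 6.87%, and each was in 1 of those 54. Egr1, Ier2, Ctgf and Cyr61 had no matched promoter and are not among the 54. Motifs further than 250 bases before a start were not searched. None of these matches is evidence of binding in these cells.

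Values below are the deposited ones, on a log scale read as log2(FPKM + 1), so that a value of 1 corresponds to FPKM 1. A difference is the mean of the 6 high cells minus the mean of the 6 low cells, in log2 units. The libraries came from a 3′ end kit, for which FPKM divides by a transcript length that the reads do not cover, so levels are compared between cells and not between genes. Above a value of 3 the sorted values of all cells were the same to within 0.0165, each cell had 4369 genes at FPKM 1 or more, and read depth is unknown. The number of genes tied at a cell's lowest value, the measure of library complexity that remains, was 1082 to 1766 in the high cells (median 1285) and 880 to 1467 in the low cells (median 1253). Its Pearson correlation with the ranking score over 17 cells was 0.24. Of 7 fibroblast markers (Pdgfra, Thy1, Col1a1, Col1a2, Col3a1, Lum and Prrx1), 6 or 7 were at FPKM 1 or more in each cell of both groups. Of 14 immune markers only Csf1r, the receptor for macrophage colony-stimulating factor, was measured. It stood at 3.2 to 4.7 in high cells 1, 3, 5 and 17, at 3.8 in intermediate cell 12 and under 0.2 in all 6 low cells. The summed level of the 3 endothelial markers measured of 12 had a median of 5.95 in the high and 5.75 in the low cells, and that of the 6 pericyte and smooth muscle markers measured of 12 was 4.46 and 1.69, with overlapping ranges. Summed keratinocyte (2 measured), adipocyte (3), Schwann and melanocyte (3) and muscle and erythroid (1) markers overlapped too, with medians of 0.29, 6.70, 3.72 and 1.72 in the high and 0.29, 8.40, 1.64 and 1.45 in the low cells. The part of these other cell types in the differences was not tested. The 17 cells fell into 3 sets by their lowest values (cells 1 to 5, 6 to 14 and 15 to 17), which clustering on 224 genes under 2.5 in every cell recovered. That clustering also used low values and was set to give 3 clusters, so it is no independent check. Spearman correlations between cells over these genes had a median of 0.27 within sets (lowest 0.12) and 0.099 between sets (highest 0.28). The first set holds 3 high and no low cells, the second 2 high and 4 low, and the third 1 high and 2 low. Differences are therefore also given within cells 6 to 14, where they rest on 2 high and 4 low cells.

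The ranking score, the mean of the 3 genes, fell on a continuum rather than into separate groups. In the high cells it was 10.65 in cell 7, 10.57 in cell 3, 10.25 in cell 5, 10.14 in cell 17, 9.94 in cell 13 and 9.85 in cell 1. The intermediate cells 4, 12, 14, 2 and 11 had 9.71, 9.47, 9.23, 8.78 and 8.15. The low cells 16, 6, 15, 10, 9 and 8 had 7.84, 7.42, 7.22, 7.20, 6.05 and 5.33. The gap between the last high cell and the first intermediate cell was smaller than that between cells 3 and 5 within the high group. The gap between the last intermediate cell and the first low cell was smaller than that between cells 16 and 6 within the low group.

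**Figure D1:**
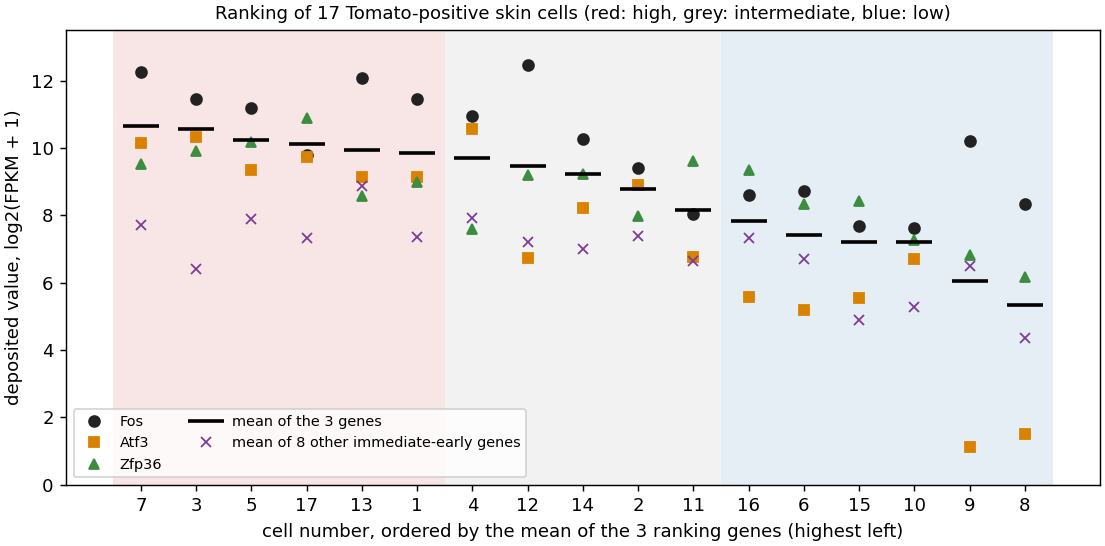
Deposited values, log2(FPKM + 1), of Fos, Atf3 and Zfp36 and their mean (vertical axis) in each of 17 cells, ordered from the highest to the lowest mean (horizontal axis). The 6 high cells lie between 9.85 and 10.65 in the mean and the 6 low cells between 5.33 and 7.84, with 5 intermediate cells from 8.15 to 9.71.

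Fos (ENSMUSG00000021250, chr12:85473890-85477273, plus strand) ranged from 9.78 to 12.27 in the high cells (median 11.45) and from 7.61 to 10.21 in the low cells (median 8.48). Its groups overlapped in cells 17 and 9, and intermediate cell 12 had the highest Fos of all, 12.47. Atf3 (ENSMUSG00000026628, chr1:191170296-191218039, minus strand) separated the groups most. It was 9.14 to 10.34 in the high cells (median 9.54) and 1.12 to 6.72 in the low cells (median 5.36), where cells 9 and 8 were near the bottom at 1.12 and 1.49. Zfp36 (ENSMUSG00000044786, chr7:28376784-28380253, minus strand) separated them least, with 8.59 to 10.90 in the high cells (median 9.73) and 6.16 to 9.34 in the low cells (median 7.82). The mean of the high cells was 11.37 (SD 0.88) for Fos, 9.64 (SD 0.51) for Atf3 and 9.68 (SD 0.84) for Zfp36, against 8.53 (SD 0.94), 4.27 (SD 2.36) and 7.73 (SD 1.18) in the low cells (n = 6 cells in each group). These are the values that chose the cells and support nothing further. Over all 17 cells, which share 1 protocol and normalisation, Pearson's r was 0.64 between Atf3 and Zfp36, 0.53 between Fos and Atf3 and 0.34 between Fos and Zfp36.

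Of 8446 genes in the table, 7548 other than the ranking genes reached FPKM 1 in at least 3 cells. The high mean exceeded the low mean by 2 log2 units or more, 4-fold on the FPKM + 1 scale, in 398 of them (5.27%), and the low exceeded the high by as much in 372 (4.93%). The numbers were similar in both directions, and the median difference of all genes was 0.01. At 1 log2 unit, 19.4% of genes were higher and 20.1% lower in the high cells. Most large differences came from genes detected in part of the cells: of the 398, 33 were at FPKM 1 or more in all 12 cells, and 125 were at that level in 0 or 1 low cells. Of the 372, 45 were detected in all 12. The sign was the same within cells 6 to 14 for 373 of the 398 and 361 of the 372. These cells include 2 of the 6 high and 4 of the 6 low cells that selected the genes. The agreement in sign was therefore largely built in.

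The other AP-1 genes encode partners of Fos. Fosb was 6.78 to 9.52 in the high cells (median 8.49) and 1.17 to 7.87 in the low cells (median 7.11). Its difference was 2.48, and low cells 8 and 15 were far below the other low cells, at 1.17 and 4.1. Jun, the main dimer partner of Fos, was 6.14 to 9.56 in the high cells (median 8.03) and 5.05 to 7.44 in the low cells (median 6.75), a difference of 1.36. Junb was 6.34 to 9.27 (median 7.74) against 1.41 to 8.83 (median 6.97), a difference of 1.48 in which cell 8 had the lowest value and cell 6 exceeded all but 1 high cell. For all of them the groups overlapped. Without cell 8 the difference was 1.55 for Fosb, under 2 log2 units, and 0.48 for Junb. Of the 12 AP-1 factors kept, 6 had a higher and 6 a lower mean in the high cells, 1 (Fosb) passed 2 log2 units, and the median was 0.22, or 0.85 within cells 6 to 14.

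Among the other immediate-early transcription factors, Egr1, a zinc finger factor that serum and stress induce, followed the ranking most closely. It was 6.64 to 9.43 in the high cells (median 8.82) and 5.09 to 7.95 in the low cells (median 5.95), with a difference of 2.17. The difference was under 2 without cell 7, 8 or 10, the lowest being 1.93 without cell 8. High cells 1 and 17 fell below low cell 16, and high cell 17 also below low cell 9. The intermediate cells had a median of 8.79, at the level of the high group. Nr4a1, an orphan nuclear receptor, was 3.25 to 7.22 (median 5.82) against 0.52 to 7.17 (median 4.70). Its difference, 1.69, was 0.99 without cell 8 and 1.10 without cell 9. Its relative Nr4a3 went the other way, at 0.17 to 2.64 (median 0.90) in the high and 0.33 to 6.17 (median 4.46) in the low cells, a difference of -2.60. Low cells 6, 10 and 16 held Nr4a3 at 5.7 or more, a value that no high cell reached. Of the 20 factors kept, 10 had a higher and 10 a lower mean, with a median of 0.16.

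The remaining response genes encode growth regulators and secreted proteins. Ier2, a nuclear protein of the early serum response, was 6.53 to 8.91 in the high cells (median 7.90) and 4.38 to 8.29 in the low cells (median 5.34). The low group was below every high cell in 5 of its 6 cells, the exception being cell 9. Ier3, a regulator of survival after stress, was 5.34 to 10.15 (median 6.89) against 0.94 to 8.76 (median 4.12), with low cells spread over the whole range. Btg2, an antiproliferative co-factor of mRNA deadenylation, was 4.58 to 8.14 (median 7.06) against 1.25 to 7.29 (median 4.08). The differences of Ier2, Ier3 and Btg2 were 2.06, 2.88 and 2.53. That of Ier2 was under 2 without any 1 of cells 3, 6, 10, 15, 16 and 17 (lowest 1.78, without cell 6), and that of Btg2 was 1.93 without cell 15.

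Ctgf, a secreted matricellular protein and a target of YAP and SRF, ran against the ranking. It was 0.26 to 1.34 in the high cells (median 0.85), and 0.63 to 8.14 in the low cells (median 4.67), a difference of -3.79. The low group was split: cells 8, 9 and 15 held it at 7.6 to 8.1, and the other low cells stayed at 1.8 or less, beside the high and intermediate cells. Its relative Cyr61 did not share this pattern, with 2.39 to 10.53 (median 9.28) in the high and 2.80 to 8.69 (median 7.50) in the low cells, and a difference of 1.82 that was 1.07 without cell 8 and 3.02 without cell 17. Pim3, a survival kinase, also had the lower mean in the high cells (1.80 against 4.29), by under 2 without cell 6 (-1.97) or cell 16 (-1.92). Of the 23 response genes kept, 3 were higher and 2 lower by 2 log2 units, and the median was 0.27.

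The MAPK phosphatases and feedback inhibitors, which end the signal that induces these genes, showed no member past 2 log2 units among 13 kept. Dusp1, which dephosphorylates p38 and JNK, was 4.15 to 11.45 in the high cells (median 7.79) and 5.82 to 11.30 in the low cells (median 7.04), so that both groups spanned the same range. Its difference of 0.20 had no stable sign, from -0.50 without cell 13 to 0.96 without cell 3. Errfi1, an inhibitor of the EGF receptor, had a difference of -0.49, or -0.03 without cell 3 and -0.99 without cell 13. Of the 25 kept members of the MAPK cascade itself, 0 were higher and 2 lower by 2 log2 units, with a median of -0.47 that changed sign to 0.25 within cells 6 to 14.

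Over all 4 immediate-early lists, the direction was mixed: 36 of 68 kept members had the higher mean in the high cells and 32 the lower, beside 50.2% of all genes above 0. By 2 log2 units 5 were higher (Fosb, Egr1, Ier2, Ier3 and Btg2) and 3 lower (Ctgf, Nr4a3 and Pim3), shares near those of all genes, and in none did the 6 high and 6 low cells separate. The median difference was 0.12, and it was -0.03 within cells 6 to 14, -0.11 without low cell 8 and -0.03 without high cell 17. The 32 members with a mean of at least 4 over the 17 cells leaned more to one side: 24 had the higher mean in the high cells and 8 the lower, beside 51.4% of the 1795 genes with such a mean, and their median was 0.91 against 0.03. In that set 5 members were higher by 2 log2 units and 0 were lower, beside 6.46% and 4.85% of all genes with such a mean. Ctgf, Nr4a3 and Pim3, the 3 lower members of the 68, had means under 4 and so fell outside the set. The set was not examined within cells 6 to 14 or without single cells.

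A mean of 8 other immediate-early genes (Egr1, Ier2, Jun, Junb, Fosb, Nr4a1, Btg2 and Dusp1) was 6.41 to 8.88 in the high cells (median 7.53) and 4.37 to 7.33 in the low cells (median 5.89). Over 17 cells its Pearson correlation with the ranking score was 0.74 (Spearman 0.66). Each of the 8 had the higher mean in the high cells, beside 36 of the 68 kept members of the 4 lists. These values therefore depend on the choice of the 8 genes. A ranking by the 8 genes kept 8 of the 12 cells in their group and moved 1, cell 3, from the high to the low end. A ranking by the mean of every other measured member of the 4 lists kept 4 and moved 5 to the opposite end. Ranking by Atf3 alone kept 11, by Fos alone 10 and by Zfp36 alone 8.

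**Figure D2:**
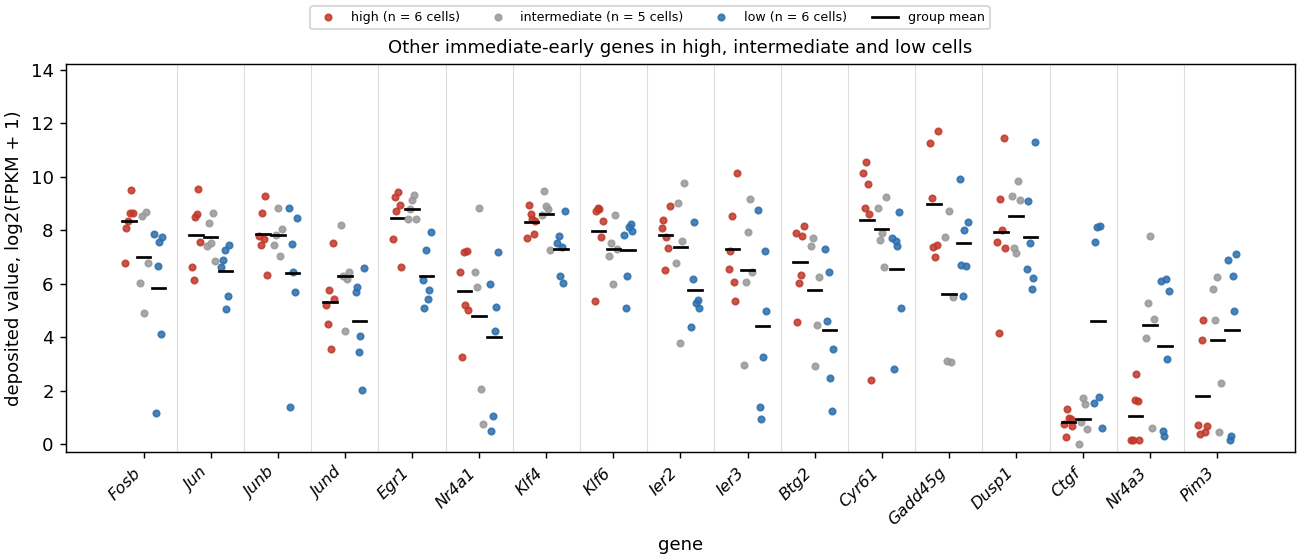
Deposited values, log2(FPKM + 1), of 17 immediate-early genes other than the ranking genes (horizontal axis) in 6 high, 5 intermediate and 6 low cells (points, 1 per cell), with group means as bars. Fosb, Egr1, Ier2, Ier3 and Btg2 have higher means in the high cells, Dusp1 spans the same range in both, and Ctgf and Nr4a3 have higher means in the low cells.

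Genes that NF-kB and STAT factors induce to limit their own signals were next in order of function. Socs3, the inhibitor of cytokine receptors that signal through STAT3, was 3.04 to 7.71 in the high cells (median 5.83) and 0.39 to 6.82 in the low cells (median 1.19). All low cells but cell 16 were at 2.1 or less, below every high cell. The difference was 3.64, and 5.21 within cells 6 to 14. Within cells 15 to 17, which hold 1 high and 2 low cells, it was -0.75. Tnfaip3, the ubiquitin-editing inhibitor A20, was 1.04 to 8.68 (median 6.42) against 0.64 to 6.61 (median 2.86), and the intermediate cells had it at a median of 7.12, above that of the high group. Of 18 kept members, these 2 passed 2 log2 units, both higher, beside 5.27% of all genes. The list was near evenly split, with 10 members above and 8 below 0, and its median of 0.23 was 0.01 without cell 3.

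The chaperone Hspa1b, a heat shock protein induced by misfolded proteins, was 5.01 to 9.40 in the high cells (median 7.05) and 0.76 to 7.50 in the low cells (median 4.41), with a difference of 3.28. The near-identical Hspa1a, with which reads may be split, differed by 0.56, with no stable sign (-0.09 without cell 5, 1.21 without cell 13). Of the 25 heat shock and chaperone genes 1 was higher and 1 lower by 2 log2 units (median 0.26). Of 25 genes of the integrated stress and unfolded protein responses 1 was higher, Ppp1r15b, a subunit of the phosphatase that restores translation (difference 2.31, just under 2 without cell 17), and the median was -0.22. The 11 p53 targets had none past 2 log2 units and a median of -0.44, and the 18 oxidative stress and metallothionein genes 1, Gpx3, a secreted glutathione peroxidase (difference 2.21, or 1.97 without cell 8 and 1.44 without cell 15).

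Zfp36 acts by recruiting deadenylases to AU-rich mRNAs, and the 17 kept genes of that machinery had a median difference of -0.02. Pan3, a subunit of a deadenylase, was 0.09 to 3.18 in the high cells (median 1.13) and 0.47 to 7.80 in the low cells (median 6.93). It was above every high cell in 5 of 6 low cells, all but cell 9. Cnot3, a subunit of the CCR4-NOT deadenylase, had a mean of 1.54 in the high and 4.48 in the low cells. These were the 2 members of the list lower by 2 log2 units, and none was higher by that much.

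Among lists with at least 8 kept members, glucocorticoid targets had the second highest median, 1.27 over 8 genes. Of these, 6 were above and 2 below 0, beside 50.2% of all genes above 0. The median was 0.98 within cells 6 to 14, 0.80 without cell 9 and 0.37 when the cells were ranked on linear FPKM. Tsc22d3, the glucocorticoid-induced leucine zipper protein, was 6.45 to 9.99 in the high cells (median 8.93) and 1.43 to 9.02 in the low cells (median 6.36). Low cell 8 stood among the high cells, and low cells 10, 15 and 16 lay below all of them at 6.2, 1.4 and 4.0, and the difference of 2.83 was 1.97 without cell 15. Sult1a1, a sulfotransferase, and Zbtb16, a zinc finger repressor, had differences of 3.13 and 2.51, but each had low medians of 0.69 and 0.44 and was near 0 in at least 1 high cell. That of Zbtb16 was 1.99 without cell 5.

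Complement genes had the highest median of these lists, 1.64, with 8 of 10 members higher in mean in the high cells, beside 50.2% of all genes, and 4 higher by 2 log2 units, beside 5.27%. C2, a protease zymogen of the classical pathway, was 0.93 to 9.83 in the high cells (median 6.45) and 0.26 to 2.25 in the low cells. It was at 6.2 to 9.8 in high cells 1, 3, 5 and 13 and near 1 in high cells 7 and 17, so that the high group was itself split. Cfb, the matching protease of the alternative pathway, was 5.52 to 9.74 (median 8.10) against 0.44 to 8.22 (median 5.78), a difference of 2.67 that was 1.71 without cell 8. C4b, the fourth component, had a difference of 2.01, which was under 2 without any 1 of cells 1, 3, 5, 8, 9, 13, 15 and 17 (1.34 without cell 8). The high cells shared 1 exception: cell 7, the highest in the ranking, had the lowest C4b, Cfb, C2 and Serping1 of the high cells. C4b was 5.83 in it and 9.9 or more in the other high cells. In the low cells C4b ran from 4.23 to 11.58, and low cell 16 exceeded every high cell.

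The central component C3 had a difference of 0.73, or 0.11 without cell 8 and 1.47 without cell 16. Serping1, the inhibitor of the first component, had a difference of 1.54 over the 12 cells and of -0.15 within cells 6 to 14. The list median within cells 6 to 14 was 0.92. Over 17 cells the mean of the complement genes had a Pearson correlation of 0.39 with the ranking score.

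Of the matrix lists, collagens had a median difference of 0.75 (12 of 17 above 0) and matrix glycoproteins and proteoglycans one of 0.71 (15 of 22), but within cells 6 to 14 these were 0.19 and 0.02. Of all genes, 50.2% were above 0. Without cell 13 the median of the collagens was 0.50, and without cell 15 that of the glycoproteins was 0.36. Lum, the small proteoglycan lumican that spaces collagen fibrils, was 10.17 to 11.49 in the high cells (median 10.83) and 6.59 to 10.06 in the low cells (median 8.37). Every high cell exceeded every low cell, and the difference was 2.62, or 2.55 within cells 6 to 14. Col16a1, a fibril-associated collagen, was 6.90 to 9.17 (median 7.93) against 1.46 to 8.19 (median 5.20), where low cells 8, 9 and 16 reached the level of the high cells. Col15a1, a basement membrane collagen, and Sparcl1, a matricellular protein, had differences of 2.22 and 2.91, the former under 2 without any 1 of cells 1, 6, 13 and 15 (1.84 without cell 15). Over 17 cells the mean of the collagens correlated with the score at 0.06.

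Among 24 matrix proteases and inhibitors the median was 0.37, or 0.20 without cell 7, 0.21 without cell 17 and near 0 within cells 6 to 14. Serpinf1, the secreted pigment epithelium-derived factor, separated the groups, with 10.53 to 12.02 in the high cells (median 11.11) and 8.20 to 10.38 in the low cells (median 10.08), a difference of 1.51. Mmp3, the protease stromelysin, was 2.68 to 11.69 (median 7.20) against 1.08 to 5.93 (median 2.12). Like C2 it was high in cells 1, 3, 5 and 13 and low in cells 7 and 17.

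Chemokines differed in both directions. Cxcl12, which attracts cells through CXCR4, was 5.37 to 10.79 in the high cells (median 6.95) and 0.88 to 6.94 in the low cells (median 4.88), with a difference of 3.09. The monocyte chemokines Ccl2 and Ccl7 had lower means in the high cells, with differences of -1.82 and -1.84. Ccl2 was 4.69 to 12.47 (median 10.19) against 8.22 to 13.26 (median 11.26), so that the ranges lay mostly on top of each other, and the difference was -0.88 without cell 1. Of 17 kept chemokines and cytokines, 3 were higher by 2 log2 units (Cxcl12, Cxcl16 and Ccl8) and 0 lower, beside 5.27% and 4.93% of all genes, and the median was 0.46. For the 12 with a mean of at least 4 it was -0.18, and over all 17, where 8 of 12 single omissions moved it over 1.5 times, it was -0.34 without high cell 17 and -0.20 without low cell 9.

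Markers of fascia and adventitia fibroblasts, the deeper connective tissue cells of skin, had the lowest median of these lists, -1.05 over 14 kept genes. Of these, 12 were below 0, beside 3761 of all 7548 genes. The median was -1.39 within cells 6 to 14, -0.63 without cell 6, -1.66 without cell 16 and -0.46 after the mean of each set of cells was subtracted. Anxa3, a membrane-binding annexin, was 3.84 to 10.81 in the high cells (median 8.14) and 6.01 to 13.69 in the low cells (median 11.43), a difference of -2.59, or -1.72 without cell 13. Low cell 16 was the exception, at 6.01, and the other low cells lay at 9.97 or more. Mfap5, a microfibril protein, was 7.40 to 10.52 (median 9.08) against 8.45 to 11.96 (median 11.11), and again cell 16 was the lowest of the low cells. Ackr3, a scavenger receptor for Cxcl12, and Cd55, a decay-accelerating factor of complement, had differences of -2.22 and -2.07. Both were smaller than 2 log2 units without some single cells, at -1.34 for Ackr3 without cell 3 and -1.39 for Cd55 without cell 13.

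Plac8 was the member of this list that was higher by 2 log2 units, at 2.10 to 10.93 (median 9.89) against 0.84 to 10.64 (median 4.29). General fibroblast identity genes had a median of -0.05. Twist1, a mesenchymal bHLH factor, was lower in mean in the high cells (2.58 against 5.59). Prrx1, the gene whose promoter drove the recombinase, correlated with the score at -0.11, and the mean of the fascia genes at -0.29.

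**Figure D3:**
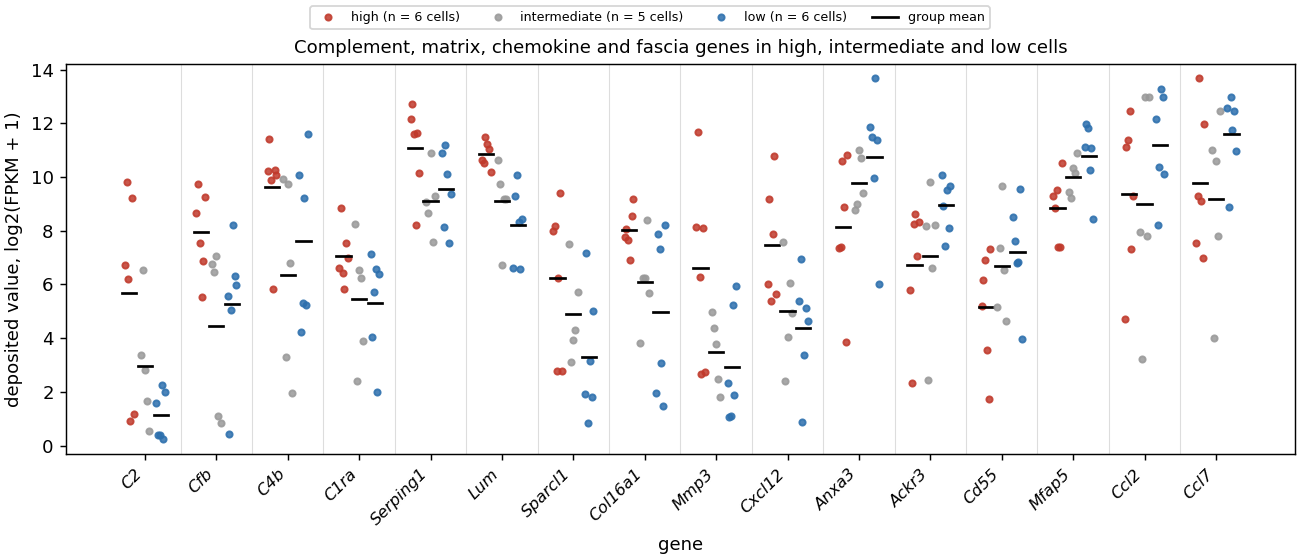
Deposited values, log2(FPKM + 1), of 16 complement, matrix, chemokine and fascia genes (horizontal axis) in 6 high, 5 intermediate and 6 low cells (points, 1 per cell), with group means as bars. Lum separates the groups, C2 and Mmp3 split the high cells, and Anxa3, Ackr3, Cd55 and Mfap5 have higher means in the low cells.

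The lists of general cell functions had medians near that of all genes. It was 0.09 for 88 genes of the respiratory chain and its assembly, 0.09 for 47 genes of the proteasome and its assembly, -0.23 for 13 housekeeping genes and -0.25 for 88 ribosomal protein genes. Of the ribosomal protein genes 63 had the lower mean in the high cells, a more one-sided share than the 3761 of all 7548 genes. Adipogenic genes had a median of 0.14 over 9 genes, of which 6 were above and 3 below 0. By 2 log2 units 2 were higher and 0 lower, beside 5.27% and 4.93% of all genes. Among the higher ones was Igf1, a growth factor (8.21 against 4.95 in mean). Targets of SRF and YAP in the cytoskeleton had a median of -0.42, with 11 of 17 below 0, beside 3761 of all 7548 genes. Actb, the cytoplasmic actin, was 8.55 to 11.53 in the high cells and 10.64 to 12.56 in the low cells, with means of 9.95 and 11.47.

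**Figure D4:**
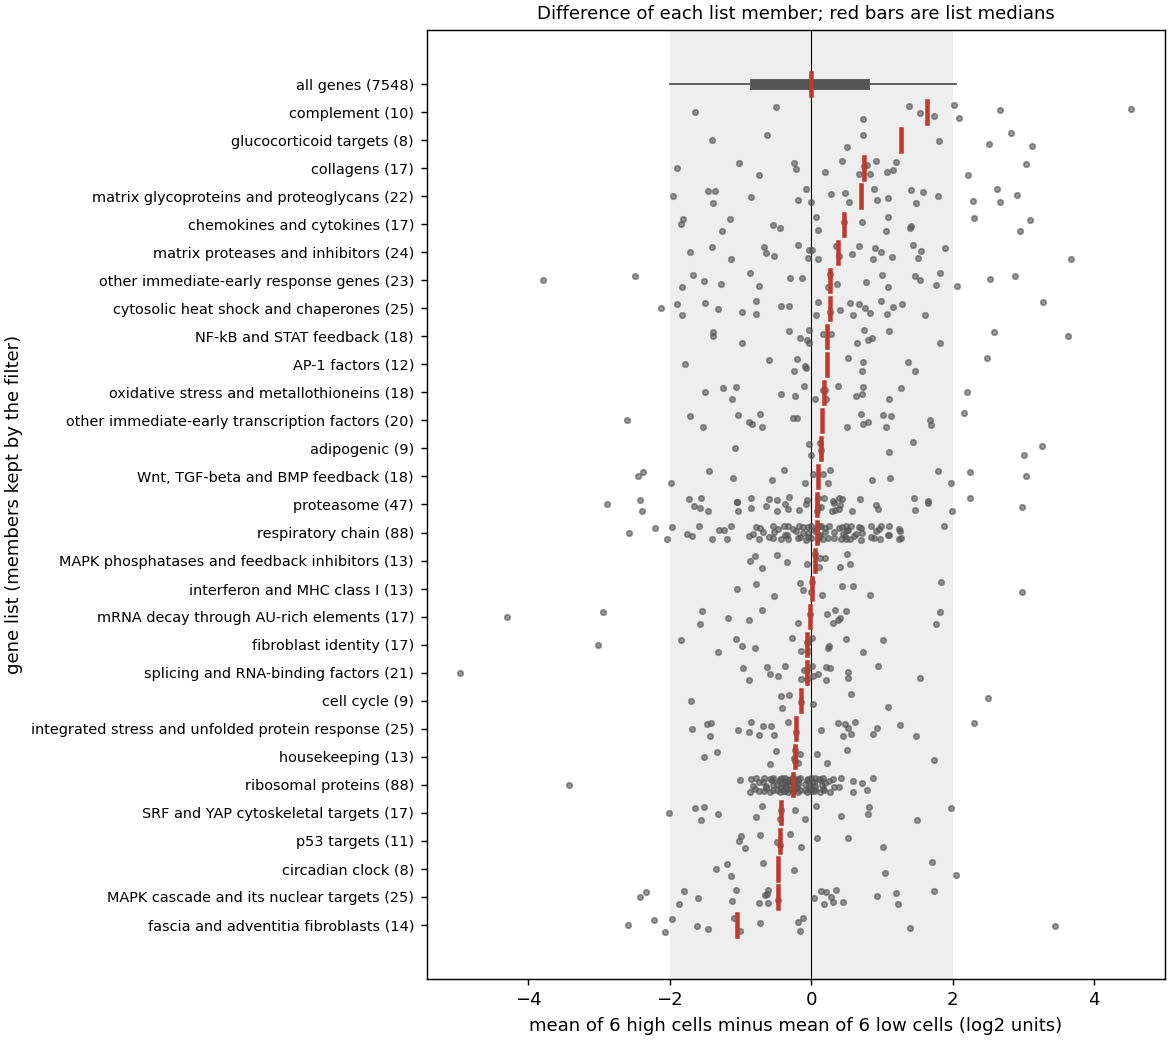
Difference in means between 6 high and 6 low cells (horizontal axis, log2 units) for each kept member (points) of the gene lists (vertical axis, number of members in brackets). Red bars are list medians, lists of other cell types are left out, the shaded band runs from -2 to 2, and the box and line for all genes give the middle 50% and 90% of genes. Complement, at 1.64, and glucocorticoid targets, at 1.27, have the highest medians, and fascia and adventitia genes, at -1.05, the lowest of the lists drawn.

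In 22 of 7548 genes (0.291%) the 6 high and 6 low cells did not overlap, 15 with all high cells above all low cells (0.199%) and 7 with all high cells below (0.0927%). In 8 of the 15 every high cell was at FPKM 1 or more, and in 5 all 12 cells were. The other members rest partly on values under FPKM 1, and Fam186a counts among the 15 only through a value of 7.5e-09 in high cell 17. Besides Lum and Serpinf1, the genes detected in all 12 cells were Cd302, Gstt1 and Ms4a4d. Cd302, a C-type lectin receptor, was 8.38 to 9.48 in the high cells (median 8.68) and 3.11 to 8.09 in the low cells (median 6.34). Gstt1, a glutathione transferase, was 6.47 to 8.91 (median 6.91) against 1.45 to 6.30 (median 4.39). Ms4a4d, a membrane protein with several transmembrane spans, was 7.80 to 8.94 (median 8.13) against 2.86 to 7.78 (median 6.00), so that its highest low cell, 16, lay just under the lowest high cell, 17. Its difference of 2.35 was 1.74 without cell 9.

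Bnip3l, a mitophagy receptor, was 6.16 to 7.80 in the high cells (median 7.22) and 0.83 to 6.14 in the low cells (median 5.17). Erc1, a scaffold protein, and Gkap1, a kinase anchoring protein, had low cells at 1.07 or less and high cells at 1.30 or more, with differences of 3.45 and 2.87. The others were Wtip, Pacsin3, Qsox2, Lpar4, Sc5d, Fbxo32 and Fam186a, each with at least 1 high cell under FPKM 1. Fam186a was 0 in all 6 low cells and 7.5e-09 in high cell 17. That cell had the same value for Trim16, Phyhipl, Setd8 and Glcci1, so Fam186a was in effect undetected in it too. In 12 of the 15 genes the median of the 5 intermediate cells lay between those of the groups. The same held for 5 of the 7 genes of the opposite direction. These genes were chosen for a gap between the groups, and the share of all genes was not examined.

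Of the 7 genes with all high cells below all low cells, Srsf10, a splicing regulator of the SR family, had the largest difference, -4.96. It was 0.34 to 3.13 in the high cells (median 0.66) and 5.21 to 7.61 in the low cells (median 5.77). The intermediate cells were split, with 3 at 5.6 to 7.0 and 2 at 1.5 or less. Setd8, the methyltransferase of histone H4 lysine 20, was at 0.45 or less in each high cell and 1.45 to 8.75 in the low cells (median 3.86), a difference of -4.07. Hmgn1, a nucleosome-binding protein, was 5.59 to 6.41 (median 6.12) against 6.55 to 7.09 (median 6.89), the only one of the 7 detected in all 12 cells and with a small difference, -0.83. Phyhipl, Esyt1, Trim16 and Glcci1 each had at least 1 low cell under FPKM 1. Of the 21 splicing factors kept, Srsf10 alone passed 2 log2 units, and the list median was -0.06.

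**Figure D5:**
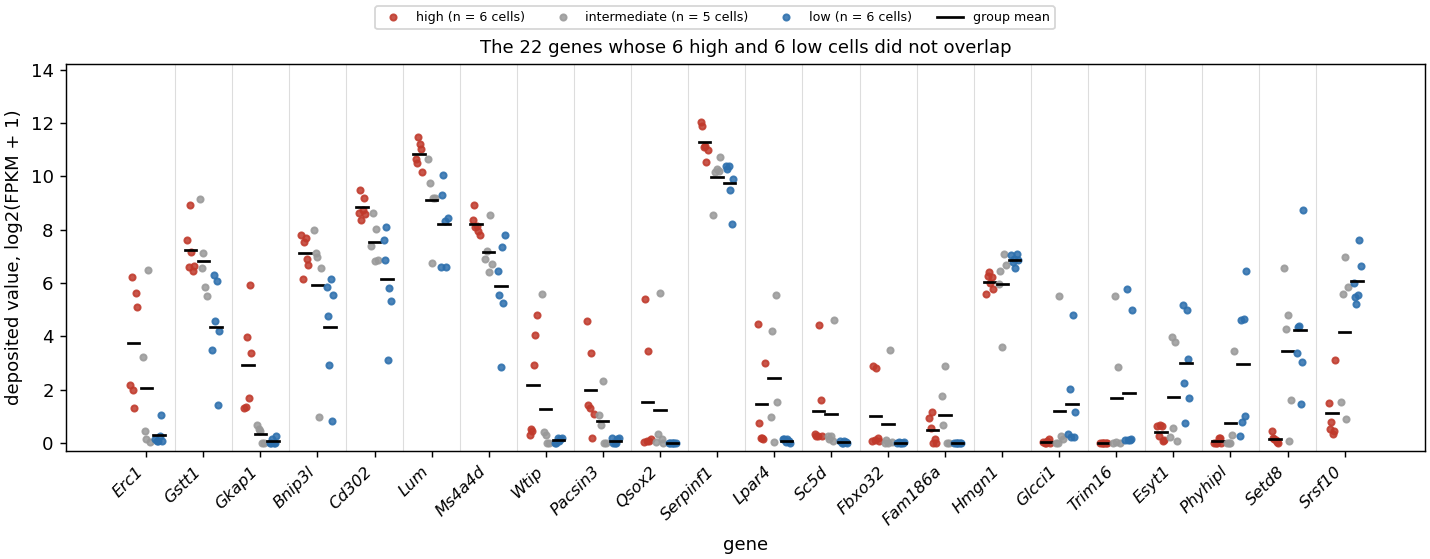
Deposited values, log2(FPKM + 1), of the 22 genes whose 6 high and 6 low cells did not overlap (horizontal axis), in 6 high, 5 intermediate and 6 low cells (points, 1 per cell), with group means as bars. In 15 genes, from Erc1 to Fam186a, all high cells lie above all low cells, and in 7, from Hmgn1 to Srsf10, all lie below. Many of the gaps lie at values under 1, and that of Fam186a is only 7.5e-09 in high cell 17 against 0 in the low cells.

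Over all 17 cells, the 10 genes with the highest Pearson correlation with the ranking score were Ms4a4d (0.80), Fam198b (0.79), Rbbp7 (0.75), Pld3 (0.74), Egr1 (0.73), Gstm5, Socs3, Hspa1b, Ddx27 and Fosb (0.72 each). Egr1 and Fosb are of the immediate-early lists, Socs3 is of the cytokine feedback list and Hspa1b of the heat shock list. Rbbp7 is a histone-binding subunit of chromatin complexes, Pld3 a lysosomal nuclease and Gstm5 a glutathione transferase. The correlations were taken over 7548 genes in cells that share a protocol and a normalisation, and 12 of the 17 cells also define the groups. Spearman's rho was 0.81 for Ms4a4d, 0.76 for Fam198b, 0.71 for Egr1 and Fosb and 0.52 for Ddx27, which was at 0.7 or less in every low cell and at 0.1 in high cell 17.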

How the data were processed

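Per the submitters' processing notes, the authors used TopHat2, Cufflinks and the mouse build GRCm38. Their versions were not given in the sources used. The deposited values are log-scale FPKM, read here as log2(FPKM + 1). Base and added constant are not stated, and every FPKM threshold rests on that reading. The design had assumed linear FPKM, so thresholds were converted. The sorted values are the same in all 17 cells (at most 0.0165 apart above 3), the form quantile normalisation gives, so depth is unknown. Of 8446 identifiers, 8431 matched GENCODE M21.

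The cells were ranked by the mean deposited value of Fos, Atf3 and Zfp36, and groups of 6 were compared by means and by overlap over genes at 1 or more in at least 3 cells, with a fold threshold of 2 log2 units. Where a symbol had several rows, the one with the highest mean was taken. The contrast was tested on simulated data. Named genes are the ranking genes, up to 15 and 10 non-overlapping genes, non-overlapping and the 3 highest members of each list, members of the immediate-early lists, and the 10 genes most correlated with the score. Other list members past the fold were chosen after their values were seen, and 1 list member is not reported here. The members and the 37 lists were chosen with earlier results of these data known. Alternatives covered scale, ranking genes, group size, pseudocount, filter, fold, sets of cells and omission of each cell. The scripts ran in Python 3.11.15 with pandas 2.3.3, numpy 2.4.6, matplotlib 3.10.9 and scipy 1.17.1.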

Additional observations from a re-analysis of the deposited data

How the results depend on the processing

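Over 26 settings, 83 named genes kept the sign of their difference in 2145 of 2158 results. The exceptions were Dusp1, Hspa1a, C3, Nr4a1 and Fam186a (-0.09 and -0.0043 when ranked on linear FPKM), and Serping1 and Csf1r (-0.15 and -0.030 within cells 6 to 14). Of the 83 genes, 60 were past 2 log2 units in the same cells, and most settings reuse nearly all of these cells. The agreement in sign was therefore largely built in. Of the 60 genes past 2 log2 units, 26 fell under it without some single cell, and 34 did not. List medians kept their sign in 663 of 805 results over 31 lists, and in every setting for 8: complement, collagens, matrix glycoproteins, glucocorticoid, fascia, cytoskeletal SRF and YAP, housekeeping and ribosomal protein genes. Without any single cell, 13 lists kept it. Matrix proteases had -0.0027 within cells 6 to 14. The 4 immediate-early lists together kept it in 21 of 26, with medians of -0.11 to 0.48 when 1 cell was left out and from -0.39 (linear FPKM) to 0.91 (mean of at least 4) otherwise. Counts moved more. Genes higher and lower by 2 log2 units numbered 728 and 722 by medians, 915 and 933 with a pseudocount of 0.1, 63 and 39 with 10, 116 and 87 at a mean of at least 4, 256 and 237 after subtracting set means, 1461 and 1514 at 1 log2 unit and 96 and 78 at 3. Leaving out each cell in turn gave 417 to 511 and 426 to 489. Genes with all high cells above all low cells numbered 7 without Atf3 in the ranking, 37 with 5 cells a group, 4 with 7, 6 at a mean of at least 4, and 18 to 31 with 1 cell left out (31 without cell 7, 29 without cell 9). Those with all high cells below numbered 18 on linear FPKM, 11 without Fos, 34 with 5 cells, 1 with 7, 1 at a mean of at least 4, 4 after subtracting set means, and 10 to 23 with 1 cell left out (23 without cell 9). Fewer cells a group leave more genes without overlap. Within cells 6 to 14, added after seeing the data, the counts were 934 and 886 past the fold and 491 and 473 without overlap. Ranking by all immediate-early members, also added then, kept 4 of 12 cells. Group medians give no count without overlap. No paired analysis was possible because the result comes from no test. Depth, which is unknown, sets how far a low value differs from none.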

Other observations

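Genes at FPKM 10 or more in all 12 cells, a set chosen after the data were seen, numbered 572, with a median difference of 0.09. Of these, 11 were higher and 3 lower by 2 log2 units. The higher ones besides those already described were Apod, an apolipoprotein that binds lipids, at 8.37 to 12.56 in the high cells (median 9.11) and 3.91 to 10.90 in the low cells (median 6.70), Srpx at 6.72 to 9.70 (median 8.19) against 4.59 to 7.15 (median 5.83), Lgals3, a galectin, at 8.53 to 11.75 (median 10.15) against 5.39 to 9.43 (median 7.94), and Ctsh, Entpd2 and Cnn3. Axl, a receptor tyrosine kinase that binds Gas6, was lower, at 4.16 to 6.77 (median 5.82) against 5.96 to 8.57 (median 8.02). Ubxn4 and Anxa3 were the other lower ones. The groups overlapped in each of these genes, and the differences of Lgals3, Ctsh, Entpd2, Cnn3, Axl, Ubxn4 and Anxa3 were under 2 without some single cell.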
